A study of Arabidopsis thaliana with 27 samples.

Results

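The dark-grown hypocotyls of the UV-B photoreceptor mutant uvr8-6 were compared with those of wild type Columbia-0 (WT), with no UV-B given to either. The members are the libraries labelled as dark controls of these genotypes, 3 of uvr8-6 and 3 of WT, which are 6 of the 27 libraries of the series, and of the 32832 loci in the count table the 19794 with enough counts were tested. The series holds 3 genotypes (uvr8-6, the mutant xpf-3 of a repair endonuclease, and WT), each kept dark or given 3000 or 30000 µmol m-2 of UV-B, with 3 libraries in each of 9 groups. All seeds were sown on filter paper with 0.5× MS medium that held GA4, a gibberellin, at 100 µM, and stayed in darkness for 2.5 days, so uvr8-6 dark and WT dark share the hormone and the darkness. The tissue of every library is labelled as etiolated hypocotyl. The extraction protocol gives 6 h after exposure, whereas the series title gives 2 days. The labels do not say whether the libraries numbered 1 to 3 came from separate plates or sowings. The p-values thus measure the spread between libraries within groups, which the fit estimated over all 27 libraries in 9 groups.

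UVR8 is a beta-propeller protein that rests as a dimer in the cytosol. UV-B absorbed by its tryptophans splits the dimer, and the monomers bind and restrain the COP1-SPA ubiquitin ligase. HY5, the bZIP activator of flavonoid and photoprotective genes, is then stabilised, and RUP1 and RUP2 later restore the dimer. Active UVR8 also binds the growth regulators BES1 and BIM1, through which UV-B restrains hypocotyl elongation. In seedlings that have seen no light, the hypocotyl elongates under gibberellin, brassinosteroid, auxin and the phytochrome-interacting factors, and the apical hook is kept closed by ethylene.

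Total counts ran from 12968130 to 15340602 per library in uvr8-6 dark, against 8492262 to 11984665 in WT dark. The authors' note sheet puts the uvr8-6 libraries in a later sequencing run than those of WT and xpf-3. Every difference between the genotypes given here is thus also a difference between runs, and their effects cannot be told apart. In bulk tissue, fewer cells of a type and less RNA per cell cannot be told apart either. Pairs of libraries within a group correlated at 0.9802 to 0.9861 in uvr8-6 dark and at 0.9706 to 0.9867 in WT dark (Pearson, log2 CPM over genes).

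UVR8 (AT5G63860) checked the labels. It stood at 2.78, 3.16 and 4.57 CPM in uvr8-6 dark and 86, 79.7 and 70.8 CPM in xpf-3 dark, against 70.6, 71.7 and 69.7 CPM in WT dark (CPM, a gene's count relative to its library's total as scaled by TMM). The uvr8-6 libraries lay far below all WT and xpf-3 libraries (log2 fold change -4.33 ± 0.17, adjusted p = 1.9e-14, edgeR quasi-likelihood test over all genes). After UV-B the difference between uvr8-6 and WT was -4.42 ± 0.17, adjusted p = 1.2e-14 at 3000 and -4.05 ± 0.17, adjusted p = 6.6e-14 at 30000 µmol m-2. The 5 genes whose log2 CPM followed UVR8 most closely over the 27 libraries were HPR2, a hydroxypyruvate reductase (Pearson r = 0.965), the galactosidase gene BGAL9 (0.954), PAB2, a poly(A)-binding protein (0.952), the brassinosteroid synthesis gene CPD (0.941) and the putative methyltransferase AT4G00750 (0.932). Since UVR8 separates the uvr8-6 libraries from all others, these r values describe genes that do the same.

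Of the 19794 genes tested, 6223 differed between uvr8-6 dark and WT dark at an adjusted p under 0.05, which is 31.4% of the genes tested. Of these, 2813 (14.2%) were higher and 3410 (17.2%) lower in uvr8-6. At least 2-fold differences were found in 1234 genes that were higher (6.23%) and 446 that were lower (2.25%). The median log2 fold change over all genes was 0.02. In 7759 genes (39.2%) the CPM of the 3 uvr8-6 and the 3 WT libraries did not overlap. The comparison of xpf-3 dark with WT dark, which shares the WT libraries and lies within the earlier run, called 33 genes (0.167%), 21 higher (0.106%) and 12 lower (0.0606%). Fitted on the 6 dark libraries alone, uvr8-6 and WT differed in 2616 genes, and the balance turned, with 1438 higher and 1178 lower. With no low-count filter 2937 were higher and 2544 lower. The count was 3878 without WT replicate 2, 3668 without WT replicate 3, 4022 without uvr8-6 replicate 1 and 3732 without uvr8-6 replicate 2.

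The same genotypes were compared after UV-B in libraries that the dark comparison does not use. There, 5414 genes differed at 3000 µmol m-2 (27.4%), 12% of genes being higher and 15.3% lower, and 7253 at 30000 µmol m-2 (36.6%), 18.9% higher and 17.7% lower. With DESeq2 size factors, 3197 genes were higher and 4149 lower at the higher dose, so the balance there turned as well. Of the genes higher in uvr8-6 dark, 1441 were also higher in uvr8-6 at 3000 µmol m-2, which is 51.2% of the dark list and 60.5% of the list at that dose. Of the genes lower in uvr8-6 dark, 2042 were lower at that dose too, 59.9% of the dark list and 67.3% of the other. At 30000 µmol m-2, 1204 genes were higher in both (42.8% and 32.2% of each list) and 1697 were lower in both (49.8% and 48.4%). Of the genes higher in the dark, 39 were lower at 3000 (1.39% of the dark list) and 110 at 30000 µmol m-2 (3.91%). Of those lower in the dark, 22 (0.645%) and 87 (2.55%) were higher. In all 3 comparisons, 877 genes were higher in uvr8-6 and 1304 were lower. These comparisons share no library but have the same division into runs.

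The direction of the calls went with the level of the gene. Among the 4949 genes with the lowest level (mean log2 CPM from -2.09 to 2.07), 994 were higher and 194 lower in uvr8-6 dark. Among the 4948 genes with the highest level (5.36 to 13.72), 528 were higher and 1614 lower. Over 19720 genes with a transcript model, the log2 fold change correlated with transcript length at a Spearman rho of -0.29 and with GC content at -0.19, while in xpf-3 dark against WT dark the values were -0.04 and 0.01. These are correlations across genes, which share libraries and are not independent. With a correction for GC and length, 2037 genes were higher and 3213 lower. What part length, level or the run had in the calls was not tested. The shares over all genes that stand beside the gene lists below are not matched for level.

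**Figure D1:**
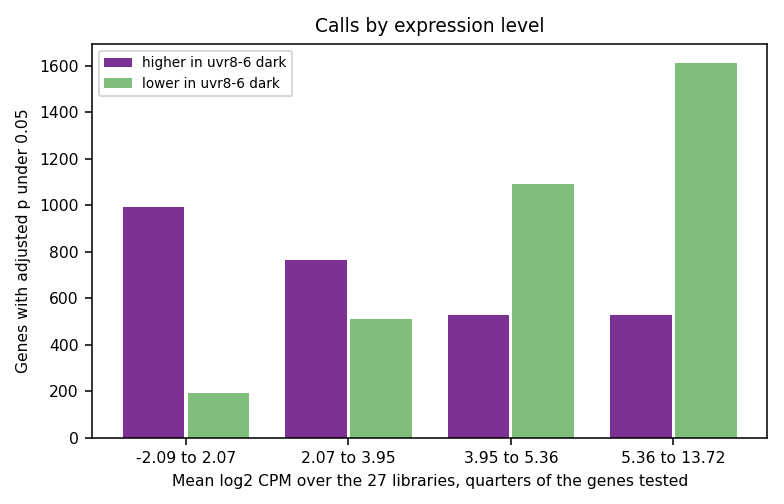
Number of genes called higher (purple) or lower (green) in uvr8-6 dark against WT dark (vertical axis, adjusted p under 0.05) in 4 equal groups of genes by mean log2 CPM over the 27 libraries (horizontal axis). Higher calls outnumber lower ones at the low end, 994 against 194, and lower calls outnumber higher ones at the high end, 1614 against 528.

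The genes with the largest positive change included several annotated as LEA proteins or oleosins. AT3G02480, which the files annotate only by its locus, stood at 210.3, 502 and 559 CPM in uvr8-6 dark and 2.14, 3.21 and 19.7 CPM in xpf-3 dark, against 4.77, 3.41 and 4.86 CPM in WT dark (log2 fold change 6.58 ± 0.82, adjusted p = 3.9e-05). LEA29, a late embryogenesis abundant (LEA) protein, stood at 62.8, 197 and 234 CPM in uvr8-6 dark and 0.428, 1.61 and 13.7 CPM in xpf-3 dark, against 1.5, 2.27 and 2.56 CPM in WT dark (6.29 ± 0.85, adjusted p = 7.6e-05). The groups did not overlap, which the rule for the largest changes required, and within uvr8-6 replicate 1 was the lowest for both genes. Oleosin 5 (AT3G01570), a coat protein of seed oil bodies, stood at 15.4, 41.8 and 58.6 CPM in uvr8-6 dark, against 0.669, 0.379 and 0.265 CPM in WT dark (6.39 ± 0.67). The LEA family gene AT3G17520 differed by 5.52 ± 0.90, LEA18 by 4.35 ± 0.67, HVA22B, an ABA-inducible membrane protein, by 5.29 ± 0.78, the AWPM-19-like gene AT1G04560 by 4.97 ± 0.82, AT1G68250, a gene with no described product, by 6.62 ± 1.21, and the gene AT3G03341, annotated as cold-regulated, by 5.16 ± 0.69 on the log2 scale. None of these 9 genes was called in xpf-3 dark, but xpf-3 replicate 3 stood above every WT library in each of them, and a second xpf-3 library did so for AT3G01570, AT1G04560 and AT3G03341.

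The seed list itself, 24 tested genes of seed storage, oil bodies, embryo regulators and oil use, was mixed. In it 8 members were higher, 4 were lower and 12 did not pass, beside 14.2% higher and 17.2% lower among all genes. The list's median log2 fold change was 0.25. The median was 0.76 without WT replicate 1 and -0.04 without WT replicate 2, and 2 members were lower without uvr8-6 replicate 1 or 2. EM6, a LEA protein of the dry embryo, stood at 1.67, 9.56 and 18.8 CPM in uvr8-6 dark, against 0.251, 0.252 and 0 CPM in WT dark (log2 fold change 5.86 ± 1.01, adjusted p = 0.00037). OLEO2, an oleosin, stood at 4.75, 22.4 and 36.1 CPM in uvr8-6 dark, against 0.502, 0.631 and 1.5 CPM in WT dark (log2 fold change 4.54 ± 0.83, adjusted p = 0.00058). ABI3, the B3 regulator of embryo maturation, was at 1.73, 3.16 and 4.44 CPM in uvr8-6 dark, against 0.753, 0.505 and 0.177 CPM in WT dark (2.67 ± 0.56), and the seed peroxiredoxin gene PER1 at 3.15, 9.63 and 18.7 CPM in uvr8-6 dark, against 0.251, 0.631 and 1.42 CPM in WT dark (3.75 ± 0.86). In all 4 genes every uvr8-6 library lay above every WT library, while EM6, OLEO2 and PER1 ranged widely within uvr8-6. Groups without overlap were found in 39.2% of all genes tested. The lower members included the peroxisomal genes PEX5, an import receptor (-0.46 ± 0.10), and ACX4, an acyl-CoA oxidase of fatty acid breakdown (-0.38 ± 0.08). The list's summed level was 4923 to 5600.0 CPM per library in uvr8-6 dark and 2763 to 6852 CPM in WT dark. The embryo regulators LEC1 and LEC2 had no count in either group.

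**Figure D2:**
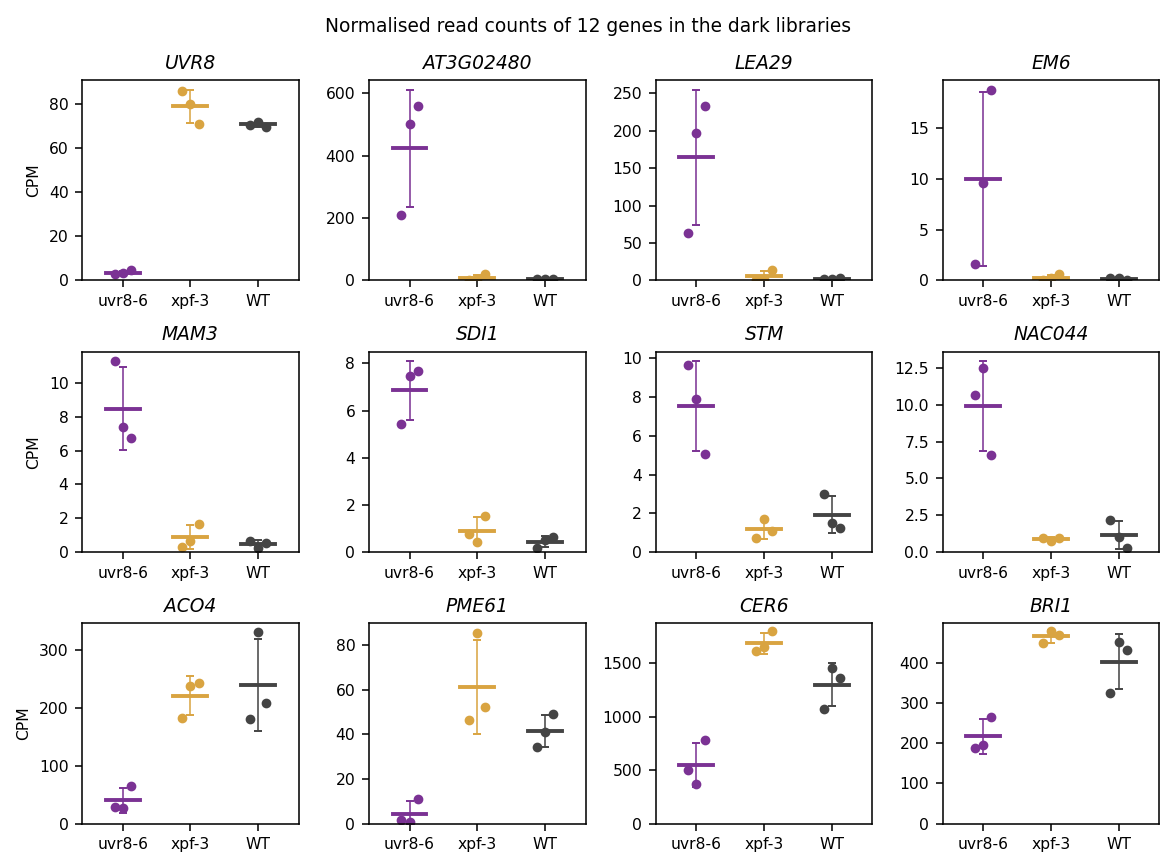
CPM (vertical axes, linear, from 0) of 12 genes in each dark library; points are libraries, bars are means and whiskers are SD (n = 3), with uvr8-6 left, xpf-3 middle and WT right. UVR8, ACO4, PME61, CER6 and BRI1 lie lower in every uvr8-6 library than in any WT library, and the other 7 genes lie higher.

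The other genes among the 15 with the largest positive change were low in both groups. AT5G54560, of unknown product, had no count in WT dark and 25, 38 and 16 counts in uvr8-6 dark, which is at least 18-fold higher against a floor of 3 counts over the group. TAT3, a tyrosine aminotransferase-like gene of the jasmonate response, stood at 1.73, 7.83 and 1.61 CPM in uvr8-6 dark, against 0.0836, 0 and 0.0884 CPM in WT dark. AT3G05730, a defensin-like gene (4.65 ± 1.29), SRO3, a gene of the inactive poly(ADP-ribose) polymerase family (4.60 ± 0.54), and the lectin receptor kinase gene LECRKA4.2 (4.39 ± 0.97) also rose. AT5G24640 passed too, but at 0.247, 0.288 and 0.193 CPM in uvr8-6 dark and with no count in WT dark.

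Some genes had counts in all libraries of 1 dark group and none in the other. AT4G39130, a dehydrin family gene, had 31, 53 and 92 counts in uvr8-6 dark and 0 in WT dark, at least 40.1-fold higher by the same floor. AT1G75945, with no annotation in the files, had 55, 71 and 43 counts against 0 (at least 38.5-fold). It was also counted in xpf-3 dark, at 1.39, 1.39 and 1.65 CPM, and was called there against WT (adjusted p = 0.0012). AT5G22470, annotated as an ADP-ribosyltransferase, had 11, 54 and 91 counts in uvr8-6 dark against 0 in WT dark (at least 35.5-fold). CHR34, a chromatin remodelling ATPase (at least 20.5-fold), AT5G53230 (at least 15.5-fold), DOF5.8, a Dof zinc finger factor (at least 11.4-fold), and the RNA helicase gene RH49 (at least 10.5-fold) followed. In the other direction AT2G16586, of unknown function, had 0 counts in uvr8-6 dark and 145, 41 and 91 in WT dark, at least 135-fold lower. It was not silent in the mutant throughout: the uvr8-6 libraries held 29 counts after 3000 and 259 after 30000 µmol m-2. AT3G28290 (1803 counts), AT2G06845 (232) and PER2 (43) were counted in WT replicate 1 alone. AT3G28290, PER2 and AT1G17990 have near-identical copies elsewhere in the genome, between which reads can be split, so their zeros are uncertain.

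Some genes of the shoot apex and young leaf were higher in uvr8-6 dark. Of 32 tested members, 10 were higher, none was lower and 22 did not pass, beside 14.2% higher among all genes, and the list's median was 1.16. STM, the homeobox gene of the shoot meristem, stood at 9.69, 7.91 and 5.09 CPM in uvr8-6 dark and 0.748, 1.71 and 1.06 CPM in xpf-3 dark, against 3.01, 1.51 and 1.24 CPM in WT dark (log2 fold change 1.94 ± 0.28, adjusted p = 8.2e-05). ANT, an AP2 factor of organ growth, stood at 14.1, 9.63 and 8.69 CPM in uvr8-6 dark, against 6.1, 3.03 and 4.78 CPM in WT dark (1.19 ± 0.23). The boundary gene CUC2 differed by 2.12 ± 0.50, the leaf polarity gene YAB2 by 2.27 ± 0.55, LMI1, a homeobox gene of leaf margins, by 3.25 ± 0.72, and SCRM2, a bHLH factor of the stomatal lineage, by 0.87 ± 0.20. KNAT1 (-0.18) and CLV1 (0.16), a meristem homeobox gene and a meristem receptor, did not pass. The summed level of the list was 356 to 438 CPM in uvr8-6 dark and 334 to 354 CPM in WT dark, and AP1, AG and FT had no count in either. WT replicate 1 had the highest STM, YAB2 and SCRM2 of the WT libraries. Without it 20 members were higher, and with only the 6 dark libraries fitted 3 were.

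Some genes of mitosis were higher. Of 39 tested members 13 were higher, none was lower and 26 did not pass (median 0.51), beside 14.2% higher among all genes. CDKB1;2, a mitotic cyclin-dependent kinase, stood at 7.77, 8.27 and 7.21 CPM in uvr8-6 dark, against 5.02, 2.9 and 2.48 CPM in WT dark (log2 fold change 1.14 ± 0.21, adjusted p = 0.00055). CYCD3;1 and CYCD3;3, cyclins that keep cells dividing, differed by 1.08 ± 0.23 and 0.95 ± 0.23, and MAD2, a spindle checkpoint protein, by 0.99 ± 0.25. CYCB1;1, a B-type cyclin that DNA damage also induces, stood at 11.7, 12 and 9.46 CPM in uvr8-6 dark, against 9.53, 4.54 and 3.98 CPM in WT dark (0.85 ± 0.20), and its groups overlapped at WT replicate 1. Of the DNA replication genes, 3 of 36 were higher, with POLA3, a primase subunit, at 0.57 ± 0.13 and RFC3, a clamp loader subunit, at 0.46 ± 0.13, and 1 was lower, the clamp loader gene RFC1 at -0.37 ± 0.13. Of the core histone genes, 4 of 29 were higher, led by HTA8 (0.54 ± 0.15) and HTR4 (0.31 ± 0.09), and 2 were lower, HTB4 (-0.25 ± 0.07) and HTA12 (-0.50 ± 0.15). Called were 11.1% of the replication and 20.7% of the histone genes, beside 31.4% of all genes. Without WT replicate 1, 10 replication and 8 histone genes were higher, without uvr8-6 replicate 3 they were 6 and 8, without WT replicate 2 they were 1 and 1, and without WT replicate 3 they were 1 and 0. Without uvr8-6 replicate 1 they were 2 and 0, and without uvr8-6 replicate 2 they were 1 and 2. The count of mitosis genes was 25 without WT replicate 1, 7 without WT replicate 2, 6 without WT replicate 3 and 2 with the 6 dark libraries alone.

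Some targets of the DNA damage checkpoint were higher in uvr8-6 dark, where no UV-B had been given. Of 37 tested genes of the damage response 13 were higher and 2 lower (median 0.28), beside 14.2% higher and 17.2% lower among all genes. NAC044, a NAC factor that stops the cycle at G2, stood at 10.7, 12.5 and 6.57 CPM in uvr8-6 dark and 0.962, 0.75 and 0.945 CPM in xpf-3 dark, against 2.17, 1.01 and 0.265 CPM in WT dark (log2 fold change 3.06 ± 0.36, adjusted p = 1.1e-05). GMI1, a recombination gene, stood at 12, 15.9 and 12.1 CPM in uvr8-6 dark, against 4.6, 3.91 and 2.83 CPM in WT dark (log2 fold change 1.81 ± 0.25, adjusted p = 6.6e-05). PARP2, a poly(ADP-ribose) polymerase, stood at 14.1, 12.9 and 9.72 CPM in uvr8-6 dark, against 5.27, 2.02 and 3.36 CPM in WT dark (log2 fold change 1.74 ± 0.25, adjusted p = 7.6e-05). In all 3 genes the groups did not overlap, as was so for 39.2% of all genes tested. The cyclin-dependent kinase inhibitor genes SMR4 (1.50 ± 0.24) and SMR7 (2.57 ± 0.46) and NAC085 (4.35 ± 0.72), a second NAC factor of the G2 arrest, were also higher, NAC085 from 0 to 0.0836 CPM in the WT libraries. After UV-B the difference between the genotypes for NAC044 was -0.04 at 3000 and -0.03 at 30000 µmol m-2, and for PARP2 0.04 and 0.19. For NAC085 it was -0.51 at 30000 µmol m-2. None of these passed, and the list had 2 higher and 5 lower at 3000 and 1 higher and 5 lower at 30000. Whether these differences differ from those in the dark was not tested. With the 6 dark libraries alone 8 damage genes were higher. Of 40 lesion repair genes 15% were called, beside 31.4% of all genes. Of these 1 was higher, the endonuclease gene APE1L (0.70 ± 0.20), and 5 were lower. The lower ones included RAD23C, a damage recognition partner (-0.68 ± 0.13), and DME, a DNA glycosylase that also removes methylcytosine (-0.56 ± 0.13). Another was XPB1, a helicase of transcription factor TFIIH (-0.49 ± 0.14). The lower repair genes were 2 without WT replicate 3 and 3 without uvr8-6 replicate 1 or 2.

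Several aliphatic glucosinolate genes were higher in uvr8-6 dark. Glucosinolates are sulfur-rich defence compounds, of which the aliphatic ones start from chain-elongated methionine. Of 26 tested members 12 were higher and 1 lower (median 0.58), beside 14.2% higher and 17.2% lower among all genes. MAM3, a methylthioalkylmalate synthase that elongates the chain, stood at 11.3, 7.4 and 6.76 CPM in uvr8-6 dark and 0.321, 0.643 and 1.65 CPM in xpf-3 dark, against 0.669, 0.252 and 0.531 CPM in WT dark (log2 fold change 4.04 ± 0.52, adjusted p = 2.7e-05). MYB28, the main activator of the aliphatic branch, stood at 3.21, 3.95 and 2.64 CPM in uvr8-6 dark, against 0.502, 0 and 0.442 CPM in WT dark (log2 fold change 3.20 ± 0.42, adjusted p = 3.8e-05). CYP79F2, which converts elongated methionine to the oxime, stood at 4.94, 3.95 and 2.19 CPM in uvr8-6 dark, against 0.167, 0 and 0.177 CPM in WT dark (4.74 ± 0.64), IPMI2, an isomerase of the elongation cycle, at 2.96, 2.95 and 2 CPM in uvr8-6 dark, against 0.335, 0.126 and 0 CPM in WT dark (3.95 ± 0.66), and MAM1 at 2.1, 1.29 and 1.54 CPM in uvr8-6 dark, against 0, 0 and 0.0884 CPM in WT dark (5.26 ± 0.89). For each of these genes all uvr8-6 libraries lay above all WT libraries, at low levels. Groups without overlap were found in 39.2% of all genes tested. MAM1 and MAM3, like CYP79F1 and CYP79F2, are similar neighbours between which reads can be split. The glucosinolate transporter gene GTR2 was higher as well (0.62 ± 0.12). At 30000 µmol m-2, 3 members were higher and 2 lower, with MYB28 at 2.33 and MAM3 at 1.08. Outside this list FAH1, ferulate 5-hydroxylase of sinapate synthesis, stood at 12.3, 9.49 and 8.76 CPM in uvr8-6 dark, against 0.92, 1.51 and 1.33 CPM in WT dark (log2 fold change 3.04 ± 0.29, adjusted p = 9.7e-07), the member of the phenylpropanoid list with the smallest p.

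Several genes of sulfate supply were higher. Of 47 tested genes of nutrient supply, 17 were higher and 9 lower (median 0.19), beside 14.2% higher and 17.2% lower among all genes. SDI1, a sulfur-deficiency gene that in Arabidopsis restrains glucosinolate synthesis, stood at 5.43, 7.48 and 7.66 CPM in uvr8-6 dark and 0.748, 0.429 and 1.54 CPM in xpf-3 dark, against 0.167, 0.505 and 0.619 CPM in WT dark (log2 fold change 3.99 ± 0.45, adjusted p = 7.5e-06). LSU1, a sulfur-starvation protein, stood at 1.85, 1.37 and 3.15 CPM in uvr8-6 dark, against 0.0836, 0.126 and 0.0884 CPM in WT dark (log2 fold change 4.31 ± 0.71, adjusted p = 0.00022). SULTR1;2, a root sulfate importer, stood at 18.1, 18.3 and 19.1 CPM in uvr8-6 dark, against 5.52, 6.43 and 4.86 CPM in WT dark (log2 fold change 1.73 ± 0.33, adjusted p = 0.00063), and APR1, which reduces activated sulfate, at 29.8, 32.8 and 32 CPM in uvr8-6 dark, against 8.61, 10.8 and 13.8 CPM in WT dark (1.51 ± 0.29). No uvr8-6 library overlapped WT in these genes, as was so for 39.2% of all genes tested. FER1, an iron store, was higher at 474, 519 and 531 CPM in uvr8-6 dark, against 232, 264 and 305 CPM in WT dark (0.93 ± 0.14), and so was the nitrite reductase gene NIR1 (1.29 ± 0.24). Named after their values were seen, the sulfate importer gene SULTR1;1 (1.91 ± 0.46), the vacuolar exporter gene SULTR4;2 (0.87 ± 0.18), APR2 (0.83 ± 0.28), APR3 (0.90 ± 0.23) and LSU2 (2.44 ± 0.55) were higher as well. Named in the same way, ASN1, an asparagine synthetase of starved cells (-1.97 ± 0.52), and MGD3, a galactolipid synthase of phosphate starvation (-2.35 ± 0.75), were lower.

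Many ethylene genes were lower, in synthesis and in signalling. Of 32 tested members 16 were lower and 6 higher (median -0.38), beside 17.2% lower among all genes. ACO4, a 1-aminocyclopropane-1-carboxylate (ACC) oxidase that makes ethylene, stood at 28.7, 27.1 and 64.2 CPM in uvr8-6 dark and 182, 238 and 243 CPM in xpf-3 dark, against 181, 329.8 and 208 CPM in WT dark (log2 fold change -2.58 ± 0.33, adjusted p = 4e-05). EIN2, the membrane protein that passes the signal to the nucleus, stood at 125, 130.1 and 191 CPM in uvr8-6 dark, against 249, 410.3 and 358 CPM in WT dark (log2 fold change -1.19 ± 0.17, adjusted p = 8.3e-05). The receptor genes ERS2 (-1.17 ± 0.17), ETR2 (-1.11 ± 0.17) and ETR1 (-0.66 ± 0.10) were lower. None of the 3 overlapped between the groups, as was so for 39.2% of all genes tested. The ACC synthase genes were divided. Named after their values were seen, the oxidase gene ACO1 (0.52 ± 0.15) and the synthase genes ACS7 (2.15 ± 0.66), ACS8 (1.72 ± 0.45), ACS9 (1.59 ± 0.40) and ACS11 (1.18 ± 0.29) were higher, while ACS2 (-1.22 ± 0.31) and ACS6 (-1.30 ± 0.24) were lower. HLS1, an ethylene-responsive gene needed for the apical hook, was higher too (1.75 ± 0.37). The list had 14 to 17 lower members when any 1 of the 6 libraries was left out.

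Among brassinosteroid and auxin genes, most of those that passed were lower. Of 29 brassinosteroid genes 15 were lower, 1 was higher and 13 did not pass (median -0.43), beside 17.2% lower among all genes. BRI1, the receptor, stood at 188, 196 and 266 CPM in uvr8-6 dark and 448, 479.8 and 469 CPM in xpf-3 dark, against 324, 452 and 431 CPM in WT dark (log2 fold change -0.89 ± 0.14, adjusted p = 0.00013). The synthesis genes CPD (-0.78 ± 0.13) and DWF1 (-0.55 ± 0.09) and the transcription factor gene BES1 (-0.81 ± 0.16) were lower. So were IBH1, a repressor of elongation (-1.34 ± 0.26), and BSK1, a signalling kinase (-0.66 ± 0.13). In these genes no groups overlapped, as was so for 39.2% of all genes tested. Of 48 auxin genes 16 were lower, 1 was higher and 31 did not pass (median -0.44), beside the same 17.2% lower among all genes. Among the 4948 genes with the highest level 1614 were lower. What part the level of the auxin genes had in their count was not tested. ARF7, the response factor of hypocotyl bending, stood at 49.4, 50.8 and 67.7 CPM in uvr8-6 dark, against 88.8, 108 and 107 CPM in WT dark (log2 fold change -0.85 ± 0.14, adjusted p = 0.00022). The repressor gene IAA2 (-0.77 ± 0.15), the efflux carrier genes PIN4 (-0.64 ± 0.13) and PIN7 (-0.66 ± 0.14) and the conjugase genes GH3.6 (-0.76 ± 0.18) and GH3.5 (-0.82 ± 0.20) followed. WAG1, a kinase of the family that sets PIN direction, stood at 4.69, 2.59 and 11 CPM in uvr8-6 dark, against 20.9, 43.1 and 36.4 CPM in WT dark (-2.44 ± 0.34). The brassinosteroid count was 7 with the 6 dark libraries alone. The auxin count was 5 with these alone, 8 without WT replicate 2 or uvr8-6 replicate 2, and 10 without WT replicate 3 or uvr8-6 replicate 1.

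The remaining hormones gave divided lists. Of 29 gibberellin genes 4 were higher and 6 lower, close to the shares over all genes (14.2% higher and 17.2% lower). The DELLA repressor gene RGL1 was lower (-0.79 ± 0.18), as was GASA4, a gibberellin-responsive gene, at 4371, 3742 and 4527 CPM in uvr8-6 dark, against 4600.0, 7098 and 6859 CPM in WT dark (-0.55 ± 0.15), and GNC, a GATA factor that gibberellin represses, was higher (1.19 ± 0.28). Of 36 abscisic acid and dehydration genes 6 were higher and 10 lower (median -0.46). The dehydrin genes ERD10, at 157, 132 and 246 CPM in uvr8-6 dark, against 327, 582 and 505 CPM in WT dark (-1.40 ± 0.23), and COR47, at 575, 384 and 959 CPM in uvr8-6 dark, against 1270.0, 1883 and 1662 CPM in WT dark (-1.33 ± 0.31), were lower in uvr8-6, as was RD22, a dehydration gene (-1.21 ± 0.20). ABF2, a bZIP factor of the response, was lower too (-0.81 ± 0.17), and CYP707A2, which breaks abscisic acid down in germinating seeds, was higher (2.92 ± 0.75). The LEA genes above were thus higher while these dehydrins were lower. Of 27 jasmonate genes 6 were higher and 4 lower, with the repressor gene JAZ10 at 0.87 ± 0.16 and JAZ6 at -0.73 ± 0.19. The gibberellin list had 1 lower member without WT replicate 2 or uvr8-6 replicate 2 and 2 without WT replicate 3 or uvr8-6 replicate 1. Leaving out single libraries gave 4 lower abscisic acid genes without uvr8-6 replicate 1 and 5 without WT replicate 3. Of the jasmonate genes 3 were higher without any 1 WT library, and 1 was lower without WT replicate 2. With the 6 dark libraries alone 3 abscisic acid genes were lower and 2 jasmonate genes higher.

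**Figure D3:**
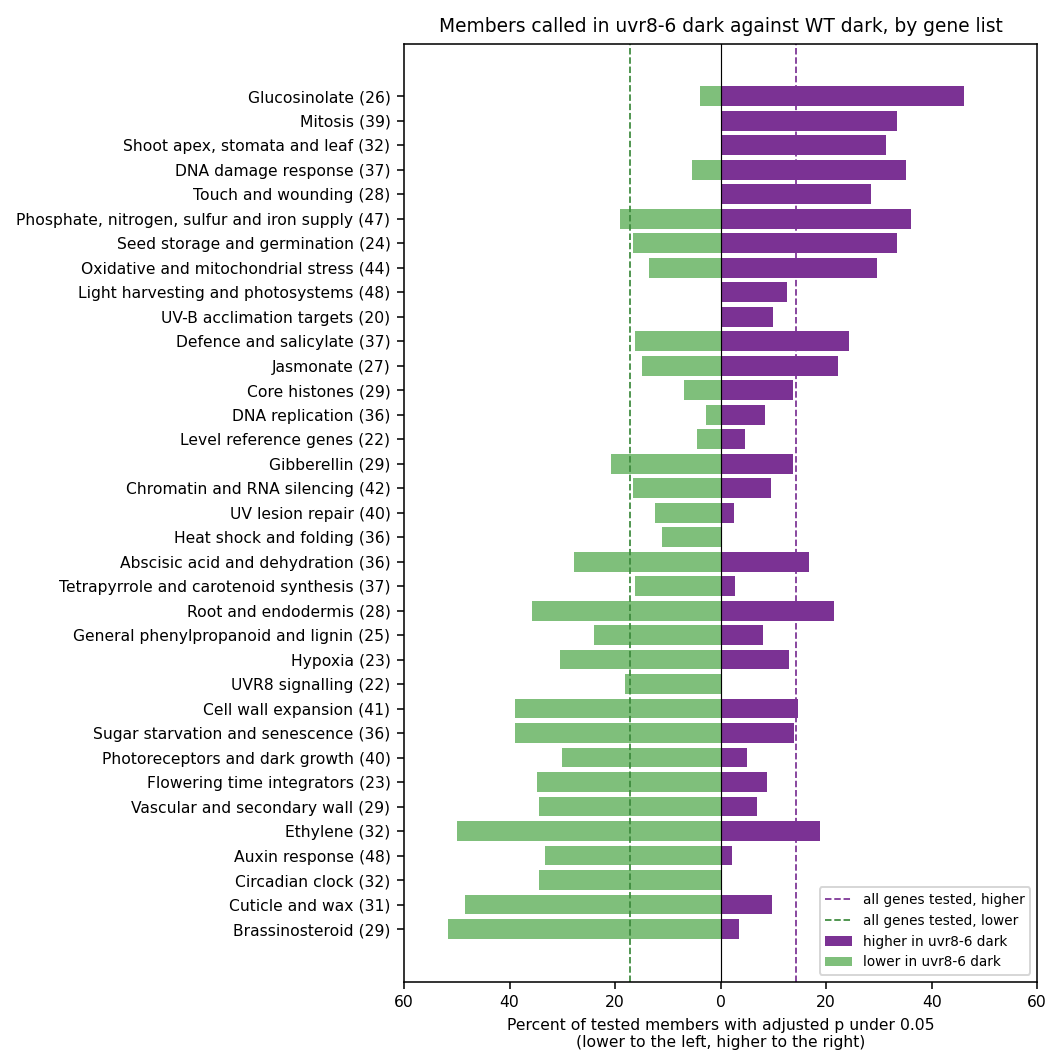
Percent of the tested members of 35 gene lists with adjusted p under 0.05 in uvr8-6 dark against WT dark (horizontal axis, lower to the left in green, higher to the right in purple; number tested after each name); dashed lines give the shares over all genes, 17.2% lower and 14.2% higher. Glucosinolate, mitosis and shoot apex genes extend to the right, and brassinosteroid, cuticle and ethylene genes to the left; a list with 5 tested members is not drawn.

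Among the called genes of the growing wall and the cuticle, more were lower than higher. The shares over all genes were 17.2% lower and 14.2% higher. Of 41 wall expansion genes 16 were lower and 6 higher (median -0.18). Their summed level was 11410 to 14960 CPM in uvr8-6 dark and 15480 to 21850 CPM in WT dark. PME61, a pectin methylesterase, stood at 1.6, 0.647 and 11.1 CPM in uvr8-6 dark and 46.3, 85.4 and 52.4 CPM in xpf-3 dark, against 34.5, 41.1 and 49 CPM in WT dark (log2 fold change -3.20 ± 0.59, adjusted p = 0.00064). ATPMEPCRD, another pectin methylesterase gene, stood at 9.62, 4.17 and 39.1 CPM in uvr8-6 dark, against 143, 186 and 142 CPM in WT dark (-3.14 ± 0.74). The esterase genes PME1 (-0.88 ± 0.14) and PME3 (-0.85 ± 0.15) were lower, whereas PME5 (1.95 ± 0.37), PME41 (0.96 ± 0.19) and XTH20, a xyloglucan endotransglucosylase (2.25 ± 0.44), were higher. Of 31 cuticle genes 15 were lower and 3 higher (median -0.33). The summed level of the cuticle list was nevertheless higher in uvr8-6 dark, at 16430 to 18520 CPM, against 15070 to 15620 CPM in WT dark. CER6, the condensing enzyme of very long chain wax precursors, stood at 499, 374 and 779 CPM in uvr8-6 dark and 1611, 1650.0 and 1800.0 CPM in xpf-3 dark, against 1075, 1457 and 1367 CPM in WT dark (log2 fold change -1.24 ± 0.24, adjusted p = 0.00087). CER5, an ABC transporter of wax, stood at 176, 149.8 and 252 CPM in uvr8-6 dark, against 354, 467 and 449 CPM in WT dark (log2 fold change -1.14 ± 0.17, adjusted p = 0.0001). The exporter gene ABCG11 (-0.81 ± 0.13), the wax ester synthase gene WSD1 (-2.56 ± 0.47) and the alkane synthesis gene CER3 (-0.78 ± 0.15) were lower. So was KCS1, another condensing enzyme (-1.19 ± 0.23). No groups overlapped in these 6 genes, as was so for 39.2% of all genes tested. Within uvr8-6, replicate 3 was the highest in each of the 6. At 30000 µmol m-2 the cuticle list had 16 higher and 3 lower. With the 6 dark libraries alone 7 wall and 8 cuticle genes were lower, without uvr8-6 replicate 2 they were 10 and 8, and the cuticle count was 8 without WT replicate 2 and 9 without WT replicate 3.

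Vascular genes that passed were mostly lower, and root genes were divided. Of 29 vascular and secondary wall genes 10 were lower and 2 higher (median -0.38), beside 17.2% lower and 14.2% higher among all genes. SEOR1, a protein of sieve tube filaments, stood at 2.34, 3.74 and 5.15 CPM in uvr8-6 dark, against 12.5, 12.2 and 12.9 CPM in WT dark (log2 fold change -1.75 ± 0.32, adjusted p = 0.00047). XCP2 and XCP1, proteases of dying xylem vessels, differed by -1.14 ± 0.25 and -1.10 ± 0.25, the laccase gene LAC4 by -1.37 ± 0.30, SEOR2 by -1.28 ± 0.30 and IRX3, a cellulose synthase of secondary walls, by -1.09 ± 0.26. Of 28 root and endodermis genes 10 were lower and 6 higher (median 0.26). SGN3, the receptor that guards the Casparian strip, stood at 25.2, 25.9 and 48 CPM in uvr8-6 dark, against 61.6, 74.8 and 77.6 CPM in WT dark (log2 fold change -1.11 ± 0.17, adjusted p = 0.00012). MYB36, the activator of the strip genes, stood at 13.7, 11.7 and 27.6 CPM in uvr8-6 dark, against 34.3, 45 and 39.1 CPM in WT dark (-1.16 ± 0.23), and the strip protein gene CASP4 (-1.53 ± 0.38) and the aquaporin gene PIP2-4 (-1.68 ± 0.32) were lower. WOX5, of the root stem cell niche, was higher (2.78 ± 0.56), at 1.91, 2.8 and 2.06 CPM in uvr8-6 dark and 0.334, 0.252 and 0.354 CPM in WT dark. The summed level was 348 to 457 CPM in uvr8-6 dark against 520.4 to 551 CPM in WT dark for the vascular list, and 1154 to 1812 CPM against 2268 to 2892 CPM for the root list. The secondary wall factor genes SND1 and MYB58 had no count in either group. The vascular count was 6 without WT replicate 3, uvr8-6 replicate 1 or uvr8-6 replicate 2, and the count of lower root genes was 5 without WT replicate 2, uvr8-6 replicate 1 or uvr8-6 replicate 2, while that of higher root genes was 1 without uvr8-6 replicate 2 and 2 without WT replicate 2 or WT replicate 3.

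The remaining genes among the 15 with the largest negative change had varied roles. FDH, a mitochondrial formate dehydrogenase, stood at 94.2, 60.7 and 249 CPM in uvr8-6 dark, against 552, 907 and 701 CPM in WT dark (log2 fold change -2.42 ± 0.42, adjusted p = 0.00043). HIPP31, a metal-binding protein, stood at 16.5, 7.69 and 39 CPM in uvr8-6 dark, against 107, 157 and 116 CPM in WT dark (-2.58 ± 0.42), and RGF9, a root growth factor peptide, at 1.67, 0.647 and 6.5 CPM in uvr8-6 dark, against 18.2, 26.8 and 17.8 CPM in WT dark (-2.80 ± 0.55). AT1G78230 (-2.87 ± 0.54), AT1G56660 (-2.82 ± 0.44) and AT5G67020 (-2.65 ± 0.39), without a described role, also fell, as did DIN2, a dark-inducible glucosidase (-2.41 ± 0.66). MYBL2, a repressor of anthocyanin synthesis, stood at 0.802, 0.575 and 1.16 CPM in uvr8-6 dark, against 4.85, 9.72 and 3.71 CPM in WT dark (-2.79 ± 0.50). For SAP130a, a spliceosome protein gene (-2.68 ± 0.93), a near-identical copy makes the count uncertain. Replicate 3 of uvr8-6 had the highest value of its group for FDH, HIPP31, RGF9, AT1G78230, PME61 and ATPMEPCRD, and remained below WT.

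In the pathway of the mutated gene, few other genes differed. Of 22 tested signalling genes 4 were lower and none higher, so 18.2% were called, UVR8 included, beside 31.4% of all genes. Beside UVR8 itself these were BES1, at 149.9, 128 and 194 CPM in uvr8-6 dark, against 218, 313 and 298 CPM in WT dark (-0.81 ± 0.16), BIM1, at 126, 159 and 156 CPM in uvr8-6 dark, against 228, 229 and 239 CPM in WT dark (-0.66 ± 0.13), and SPA2, a partner of COP1 (-0.28 ± 0.11). COP1 (-0.19, adjusted p = 0.256), HY5 (-0.78, 0.367), HYH (-0.13, 0.916), RUP1 (-1.48, 0.064) and RUP2 (0.08, 0.953) did not pass. Of 20 tested genes listed as targets of UV-B acclimation, 2 were higher and none lower, so 10% were called. These were FLS1, flavonol synthase, at 0.617, 1.08 and 0.58 CPM in uvr8-6 dark, against 0.502, 0.126 and 0 CPM in WT dark (1.70 ± 0.59), and GSTU20, a glutathione transferase, at 115, 131 and 83.7 CPM in uvr8-6 dark, against 101, 36.2 and 32.6 CPM in WT dark (0.95 ± 0.34). Neither passed without WT replicate 2, WT replicate 3 or uvr8-6 replicate 2. ELIP2 (1.40, adjusted p = 0.492) and TT4, chalcone synthase (1.22, 0.254), did not pass, and these p-values do not show equal levels.

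Photoreceptor, clock and plastid genes were also read. Of 40 photoreceptor and dark growth genes 12 were lower and 2 higher (median -0.19), beside 17.2% lower and 14.2% higher among all genes. The cryptochrome genes CRY2, at 151, 156 and 169.7 CPM in uvr8-6 dark, against 192, 244 and 249.6 CPM in WT dark (log2 fold change -0.52 ± 0.09, adjusted p = 0.00044), and CRY1 (-0.56 ± 0.12), the phytochrome gene PHYB (-0.62 ± 0.13), NPH3, a phototropism protein (-0.49 ± 0.10), and PIF8, a phytochrome-interacting factor (-1.90 ± 0.37), were lower. With the 6 dark libraries alone 7 of these genes were lower. Of 32 clock genes 11 were lower and none higher (median -0.59). RVE4, a MYB-like activator of evening genes, stood at 36.5, 31.6 and 42.7 CPM in uvr8-6 dark, against 55.7, 64 and 62.4 CPM in WT dark (log2 fold change -0.72 ± 0.11, adjusted p = 0.00014). ZTL, a blue light sensing F-box protein (-0.62 ± 0.11), its relative LKP2 (-0.69 ± 0.13), CDF3 (-1.33 ± 0.33), TOC1 (-0.52 ± 0.13) and RVE8 (-0.74 ± 0.20) were lower. The clock count was 6 without WT replicate 2, 7 without WT replicate 3 or uvr8-6 replicate 1, and 6 with the 6 dark libraries alone. Of 48 nuclear light-harvesting and photosystem genes 6 were higher and none lower (median 0.42), so 12.5% were called, beside 31.4% of all genes. The photosystem II subunit genes PSBY (0.68 ± 0.20) and PSBX (0.68 ± 0.24) were among them, and the Rubisco small subunit gene RBCS3B stood at 650.0, 465 and 565 CPM in uvr8-6 dark, against 456, 258 and 234 CPM in WT dark (0.82 ± 0.30). That count was 0 without WT replicate 3 or uvr8-6 replicate 1, 1 without WT replicate 2 and 11 without WT replicate 1.

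Starvation and stress genes differed in both directions. Of 36 genes of sugar starvation 14 were lower and 5 higher (median -0.18), beside 17.2% lower and 14.2% higher among all genes. DIN10, a dark-inducible raffinose synthase-like gene, stood at 142, 123 and 192 CPM in uvr8-6 dark and 603, 832 and 729 CPM in xpf-3 dark, against 384, 600.0 and 424 CPM in WT dark (log2 fold change -1.62 ± 0.24, adjusted p = 9.8e-05). The hexose transporter gene STP1 stood at 57.2, 48.1 and 84.3 CPM in uvr8-6 dark, against 133, 212 and 167 CPM in WT dark (log2 fold change -1.43 ± 0.22, adjusted p = 0.00013), and DIN3, of branched-chain amino acid breakdown, at 23.9, 20.9 and 25.7 CPM in uvr8-6 dark, against 38.3, 51.2 and 47.9 CPM in WT dark (-0.96 ± 0.14). The trehalose phosphate synthase-like gene TPS9 (-0.60 ± 0.12) and the starvation factor gene BZIP63 (-0.88 ± 0.17) were lower, and BZIP11, a factor that sucrose represses in translation, was higher (1.26 ± 0.26). Of 44 oxidative and mitochondrial stress genes 13 were higher and 6 lower (median 0.37). CAT3, a catalase, stood at 5317, 4430.0 and 6138 CPM in uvr8-6 dark, against 8466, 9335 and 9313 CPM in WT dark (log2 fold change -0.77 ± 0.12, adjusted p = 0.00011). ANAC013, the NAC factor of mitochondrial retrograde signalling, stood at 12.1, 17.3 and 11.2 CPM in uvr8-6 dark, against 6.44, 3.41 and 5.48 CPM in WT dark (log2 fold change 1.37 ± 0.23, adjusted p = 0.00023). UPOX, an oxidative stress marker, stood at 34.8, 37.7 and 25.6 CPM in uvr8-6 dark, against 14.7, 1.51 and 1.06 CPM in WT dark (2.43 ± 0.49), with WT replicate 1 far above the other two WT libraries. FSD1, an iron superoxide dismutase, stood at 115, 45.5 and 36.9 CPM in uvr8-6 dark and 35.7, 38 and 14.9 CPM in xpf-3 dark, against 14.5, 4.04 and 1.68 CPM in WT dark (3.25 ± 0.74), and the uvr8-6 and xpf-3 libraries overlapped there. CCS, the copper chaperone of superoxide dismutase, was lower (-0.47 ± 0.10). Without uvr8-6 replicate 2, 6 of the stress genes were higher, without WT replicate 2, 8 were, and with the 6 dark libraries alone 7 were.

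Touch, defence and heat genes completed the set. The shares over all genes were 14.2% higher and 17.2% lower, 31.4% together. Of 28 touch and wounding genes 8 were higher and none lower (median 0.32). JAZ10, named above, CML37, a calmodulin-like protein (3.14 ± 0.83), PUB23, a ubiquitin ligase of immune restraint (1.16 ± 0.32), ERF5, an ethylene response factor (1.03 ± 0.29), ZAT10, a zinc finger repressor, at 4.44, 10.7 and 5.79 CPM in uvr8-6 dark, against 1.42, 0.757 and 3.27 CPM in WT dark (1.86 ± 0.54), and ERF11, a repressor of the same family as ERF5 (1.15 ± 0.37), were among them. For PUB23, ERF5 and ZAT10 replicate 2 was the highest uvr8-6 library, and the list's count was 2 higher and 1 lower without it 4 higher without WT replicate 2 and 2 higher with the 6 dark libraries alone. Of 37 defence genes 9 were higher and 6 lower. The ABC transporter gene PEN3 stood at 157, 129.6 and 206 CPM in uvr8-6 dark, against 307, 439 and 420.1 CPM in WT dark (log2 fold change -1.24 ± 0.21, adjusted p = 0.00027), and the myrosinase gene PEN2 was lower (-0.60 ± 0.13). MLO6 (2.29 ± 0.45), CYP81F2, of indole glucosinolate modification (2.46 ± 0.49), the immune receptor gene RPM1 (2.32 ± 0.49) and WRKY18 (0.68 ± 0.15) were higher. The higher count was 5 without WT replicate 2 and 4 without uvr8-6 replicate 2. Of 36 heat shock genes 4 were lower and none higher (11.1% called), with HSFB2B at -0.88 ± 0.23. The lower count was 1 without WT replicate 3 and 2 without uvr8-6 replicate 1 or 2, and 2 were higher without WT replicate 1. Of 23 hypoxia genes 7 were lower and 3 higher, with the oxygen-responsive repressor gene LBD41 at -1.22 ± 0.20 and SRO5 at -2.01 ± 0.34. Of 42 chromatin and RNA silencing genes 4 were higher and 7 lower, so 26.2% were called. These included the Argonaute genes AGO1 at -0.41 ± 0.08, AGO10 at 0.46 ± 0.12 and AGO7 at 0.81 ± 0.22. The histone methyltransferase gene ATXR5 was at 0.78 ± 0.17 and the Dicer gene DCL1 at -0.52 ± 0.16. The lower count was 3 without WT replicate 3, uvr8-6 replicate 1 or uvr8-6 replicate 2, and 4 without WT replicate 2. Of 23 flowering time genes 2 were higher and 8 lower, with the RNA-binding gene FPA at -0.57 ± 0.10, the floral repressor genes TEM2 at -0.69 ± 0.15 and TEM1 at -0.74 ± 0.16, and FLC, the repressor that cold silences, at -0.85 ± 0.25. The lower count was 4 without WT replicate 2 or uvr8-6 replicate 1. Of 37 tetrapyrrole and carotenoid genes 1 was higher and 6 lower, so 18.9% were called. CH1, chlorophyllide a oxygenase, was at -0.67 ± 0.14 and GUN5, a magnesium chelatase subunit, at -0.68 ± 0.17. Without WT replicate 1 that list had 7 higher and 5 lower, and none was higher without WT replicate 2, WT replicate 3 or uvr8-6 replicate 1. Of 25 phenylpropanoid genes 2 were higher and 6 lower. Of 5 tested anthocyanin genes MYBL2 was lower and EGL3, a bHLH activator, was higher (1.03 ± 0.21).

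**Figure D4:**
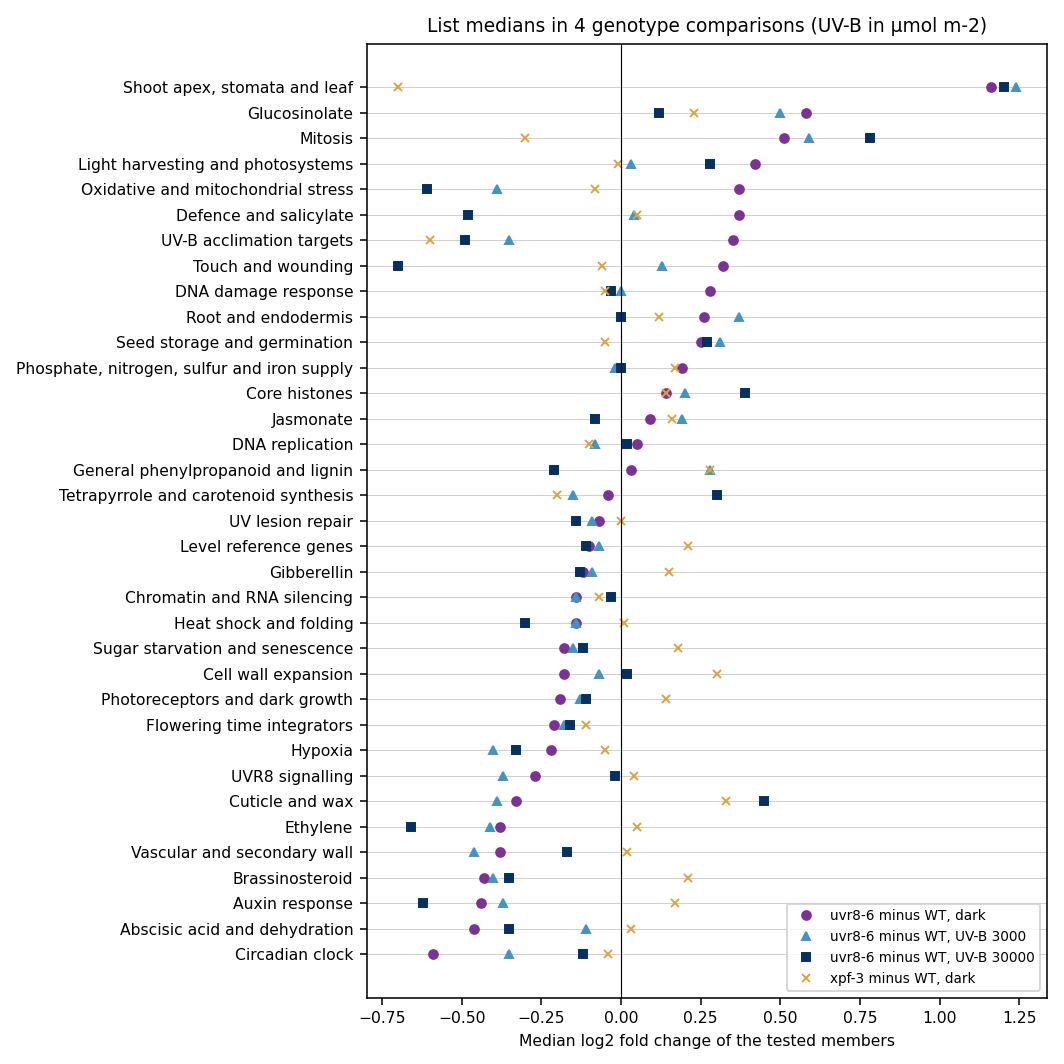
Median log2 fold change of the tested members of 35 gene lists (horizontal axis) in uvr8-6 minus WT in the dark (circles), after 3000 (triangles) and after 30000 µmol m-2 UV-B (squares), and in xpf-3 minus WT in the dark (crosses). The shoot apex list lies at 1.16, 1.24 and 1.20 in the 3 comparisons of uvr8-6 with WT, while the oxidative stress list lies at 0.37 in the dark and at -0.39 and -0.61 after UV-B.

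Transcripts of the organelle genomes and some small nucleolar RNAs were higher in uvr8-6 dark. Of 56 tested chloroplast loci 42 were higher in uvr8-6 dark and none lower (median 2.48), beside 14.2% higher among all genes. Of 18 mitochondrial loci 8 were higher and none lower (median 2.30). Chloroplast loci took 0.0175%, 0.0211% and 0.00802% of the counts in uvr8-6 dark, 0.00361%, 0.00261% and 0.00293% in xpf-3 dark, and 0.00288%, 0.00305% and 0.00264% in WT dark. Mitochondrial loci took 0.15%, 0.265% and 0.0604% in uvr8-6 dark, 0.0821%, 0.0346% and 0.0615% in xpf-3 dark, and 0.0196%, 0.02% and 0.017% in WT dark. The uvr8-6 libraries thus lay above WT for both genomes, replicate 3 the least, and for mitochondrial loci xpf-3 overlapped with uvr8-6 and had a median of 1.25 against WT. After 3000 µmol m-2, 23 chloroplast and 6 mitochondrial loci were higher in uvr8-6 and none lower, and 1 rRNA locus was lower. After 30000 µmol m-2, 14 chloroplast loci were higher and 1 lower, no mitochondrial locus was higher and 1 was lower, and 3 rRNA loci were lower. Among all genes 12% were higher at 3000 and 18.9% at 30000 µmol m-2. These RNAs mostly lack the poly(A) tails that messenger libraries select, and the labels do not say how messengers were selected. Of 69 small nucleolar RNA loci 19 were higher and 3 lower, beside 14.2% higher and 17.2% lower among all genes. With the fit restricted to nuclear protein-coding genes, 6046 genes differed. The part of library preparation in the calls was not tested.

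The level reference genes give a sense of scale. Of 22 tested genes that are commonly held constant, 1 was higher, UBQ5 (0.55 ± 0.18), and 1 lower, UBQ10, at 1035, 1073 and 1116 CPM in uvr8-6 dark, against 1565, 1435 and 1501 CPM in WT dark (log2 fold change -0.48 ± 0.09, adjusted p = 0.00044). Their median log2 fold change was -0.10. UBQ10 did not overlap between the groups and UBQ5 did. Without WT replicate 1, 2 were higher and 7 lower.

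Genes beside UVR8 on the chromosome were read for a local effect. Of the 25 tested loci on each side, AAP4, an amino acid permease and the next locus on 1 side, was higher (1.01 ± 0.27), and PP7, a phosphatase and the next on the other side, was lower (-0.33 ± 0.10). Of the 50 neighbours, 8 were higher and 19 lower, beside 14.2% higher and 17.2% lower over all genes. Lower calls were thus more frequent than over all genes, and the calls went in both directions on both sides. Whether the position had a part in this was not tested. NAC103, a NAC factor 19 loci away, had the largest difference of the neighbours (3.06 ± 0.48), and FLS5, a flavonol synthase relative 22 loci away, followed (1.82 ± 0.52). Named after their values were seen, NAC102 (-1.08 ± 0.18), AT5G63820 (-0.80 ± 0.23), PI-4KBETA1, a phosphatidylinositol kinase (-0.80 ± 0.15), and MUM2, a galactosidase (-0.76 ± 0.24), were lower.

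**Figure D5:**
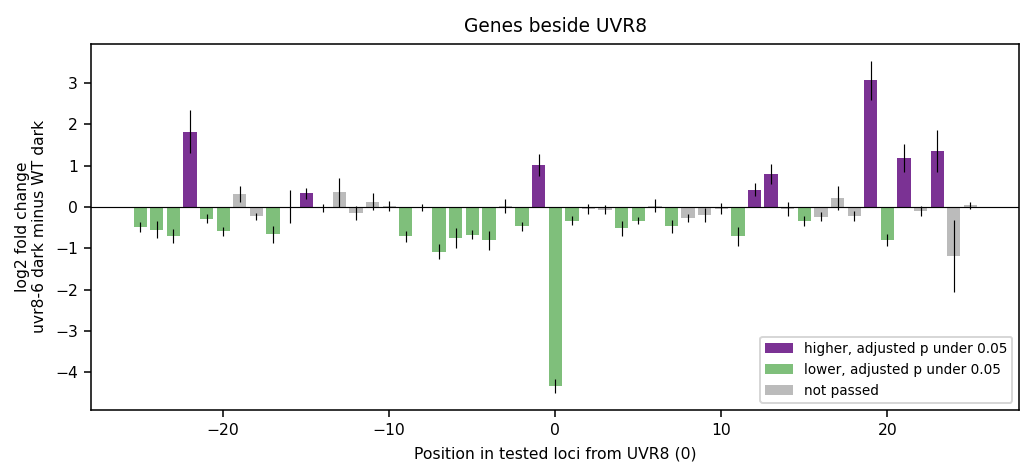
log2 fold change of uvr8-6 dark minus WT dark (vertical axis, whiskers are standard errors) for the 25 tested loci on each side of UVR8, by position in the order of tested loci (horizontal axis, UVR8 at 0). UVR8 stands at -4.33, and calls among its neighbours go in both directions, with NAC103 at 3.06.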

How the data were processed

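Libraries were of the TruSeq stranded kind and came from total RNA of hypocotyls, per the labels' protocols. The authors deposited raw counts per gene for 32832 loci in 27 libraries, of which 19794 loci passed edgeR's filterByExpr. The submitters' processing notes name FastQC, Trimmomatic, HISAT2 and DESeq2 without versions. Which genome build and read counter were used, and how shared reads were counted, is not given in the sources used here. A second deposited table holds the normalised counts of the authors (signal), each a raw count divided by 1 factor per library; it served for gene names and as a check. Transcript length and GC were taken from RefSeq transcripts by locus.

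Counts were fitted in edgeR 4.0.16 (R 4.3.3, limma 3.58.1) with TMM factors, 9 groups and the robust quasi-likelihood F test (18 residual degrees of freedom), with Benjamini-Hochberg adjustment over all genes tested and a threshold of 0.05. Every adjusted p in the text comes from that fit. Levels are CPM scaled by TMM, floors cover counting error only, and values after ± are standard errors of the fit or, where named, SD. The fit was tested on simulated data. DESeq2 1.42.0, other size factors, no filter, a replicate block, fewer groups, single libraries left out, thinned counts and a GC and length correction were tried.

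The members and gene lists were chosen with earlier results of these data known. Genes were named by a rule: UVR8; the 15 largest changes each way among genes that passed, did not overlap between groups and had a mean log2 CPM of at least 1; genes at 0 in 1 dark group with a mean of at least 1 CPM in the other; up to 6 passing members of each list with the smallest p; the 25 tested loci on each side of UVR8; and the 5 genes closest to UVR8 in profile. A few genes that the rule names are not reported here.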

Additional observations from a re-analysis of the deposited data

Results flagged for a closer look

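Among 249 of the 251 tested genes that the rule for naming genes selected, 18 had a difference between uvr8-6 and WT with one direction in the dark and the other after a UV-B dose, with no overlap between the 3 libraries of each genotype in either comparison. They gave 20 such values. Over all genes tested, 110 genes called higher in the dark were called lower after 30000 µmol m-2, and 87 the other way. Those calls rest on the adjusted p and not on overlap. The change of direction itself was not tested, and genotype and sequencing run cannot be told apart in any of them.

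After 30000 µmol m-2 the log2 fold change of uvr8-6 against WT was positive for genes that were lower in the dark. It was 0.85 for STP1 (-1.43 in the dark), 0.49 for BES1 (-0.81), 0.47 for the histone gene HTA12 (-0.50), 0.51 for BIM1 (-0.66), 1.17 for DIN10 (-1.62), 0.72 for RD22 (-1.21) and 0.26 for CER3 (-0.78), of which CER3 did not pass at that dose.

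It was negative after 30000 µmol m-2 for genes that were higher in the dark. It was -1.26 for ZAT10 (1.86 in the dark), -0.92 for ERF11 (1.15), -1.28 for PUB23 (1.16), -1.08 for MLO6 (2.29), -1.30 for TAT3 (5.61), -0.23 for AGO7 (0.81), -0.62 for UPOX (2.43) and -0.51 for NAC085 (4.35), of which AGO7, UPOX and NAC085 did not pass at that dose. ANAC013, at 1.37 in the dark, was at -0.87 after 3000 and -0.97 after 30000 µmol m-2. AT5G24640, at 4.46 in the dark, a fitted value that depends on the prior count because WT dark had no count, was at -1.39 and -1.31. FLS1, at 1.70 in the dark, was at -1.58 after 3000 µmol m-2.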

How the results depend on the processing

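The count of genes differing between uvr8-6 dark and WT dark, 6223, was 6213 with DESeq2 size factors, 5481 with no low-count filter, 6384 with DESeq2, 5679 with counts thinned to the shallowest dark library, 5250 with a GC and length correction and 6046 with nuclear protein-coding genes only, the last chosen after seeing the data. It was 2616 with only the compared groups in the fit, and 1680 with an absolute log2 fold change of at least 1. Leaving out single libraries gave 3668 to 7827. The counts of uvr8-6 against WT were 5414 after 3000 µmol m-2 (3031 to 5637 without single libraries) and 7253 after 30000 µmol m-2 (4926 to 6873). With only the compared groups in the fit they were 4446 and 6012, so the dark count fell the most. The count for xpf-3 dark against WT dark, 33, was 447 with DESeq2, 1 with only the compared groups and 14 to 63 without single libraries. The causes of these changes were not tested. The share of higher calls after 30000 µmol m-2, 51.6%, was 40.6% with no low-count filter, 43.5% with DESeq2 size factors and 43.6% with DESeq2. In the dark it was 45.2%, 53.6% with no filter and 55.0% with only the compared groups.

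Same-numbered dark libraries of the 2 genotypes deviated together at 0.263, -0.0776 and 0.265, and differently numbered ones at -0.351 to 0.209. Whether the numbers pair the libraries cannot be decided from these few values. With the number as a block the counts were 6593 in the dark and 67 for xpf-3 against WT. Of 3503 values of 251 named genes under these alternatives none reversed, and 349 values of 98 genes no longer passed. In simulated data of this comparison, 100 genes were changed at each fold, all with a mean of at least 2 CPM in the dark groups. Over the 19664 genes run, 77% of 2-fold and 98% of 4-fold changes were recovered. Recovery of genes below that level, or with as many changed genes as were called here, was not tested.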
